A study of Mus musculus with 19 samples.

Results

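The genes described here are 9 genes of B lymphocytes and of the antibody-secreting plasma cells that B cells give rise to: Ms4a1, Cd79a, Cd79b, Ighm, Ighd, Igkc, Jchain, Cd22 and Pax5. They were matched by gene name among the 55414 genes of the count files, where 8 carry these names and Jchain is listed under its older symbol Igj. All 9 were among the 17617 genes that had enough counts to be tested. RNA was sequenced from abdominal aortas of male Apoe-/- mice on the C57Bl/6J background, which lack apolipoprotein E, the ligand that clears lipoprotein remnants from blood. Every mouse, controls included, received angiotensin II (AngII) by subcutaneous osmotic pump at 1000 ng per kg per min from 8 to 10 weeks of age, a treatment that produces abdominal aortic aneurysms in this strain. D-3 IR mice (7 libraries) received 1 Gy of total-body X-rays 3 days before the pump, D+1 IR mice (7 libraries) received 1 Gy 1 day after it, and control mice (5 libraries) received the same ketamine and xylazine anaesthesia without X-rays. No group without AngII was analysed here, and the study killed some mice at day 7, its time for tissue analyses, and others at day 28, without repeating the day in its account of the sequencing. Libraries are called by group and number, such as D-3 IR 10.

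B cells recognise antigen through a membrane immunoglobulin that signals through the CD79A and CD79B chains, and they switch off most of this programme when they become plasma cells. Naive B cells carry IgM and IgD together, made by alternative splicing of 1 heavy chain transcript, and switching of the heavy chain locus replaces these with IgG, IgA or IgE. Lymphocytes are known for high sensitivity to ionizing radiation. The aortic wall holds few B cells, whereas the fat and the lymph nodes around the abdominal aorta hold many. A bulk library cannot tell fewer B cells from less RNA per B cell, and this holds for every value below.

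The promoters of the 9 genes were looked up in RefSeq (GRCm38.p6, 250 bases before to 50 bases after the start site), and 4 matched, those of Cd79a, Jchain, Cd22 and Pax5. The 3 shown here were chosen because they carry a match to a motif of a B cell transcription factor. Pax5 had no match and is not shown. Whether the motifs bear on the levels below was not tested. Capitals mark the matches: CAGGTG, an E-box that E2A proteins bind (CACCTG on the other strand), and, in Cd22 alone, the motif of early B cell factor 1 (TCCC, any 2 bases, then GGGA).
Cd79a, chr7:24897247-24897546, plus strand: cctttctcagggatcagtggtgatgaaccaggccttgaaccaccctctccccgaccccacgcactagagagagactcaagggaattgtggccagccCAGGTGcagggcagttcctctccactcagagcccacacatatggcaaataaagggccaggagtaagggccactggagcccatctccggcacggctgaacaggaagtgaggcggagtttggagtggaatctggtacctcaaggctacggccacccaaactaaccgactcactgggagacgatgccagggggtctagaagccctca
Cd22, chr7:30878979-30879278, minus strand: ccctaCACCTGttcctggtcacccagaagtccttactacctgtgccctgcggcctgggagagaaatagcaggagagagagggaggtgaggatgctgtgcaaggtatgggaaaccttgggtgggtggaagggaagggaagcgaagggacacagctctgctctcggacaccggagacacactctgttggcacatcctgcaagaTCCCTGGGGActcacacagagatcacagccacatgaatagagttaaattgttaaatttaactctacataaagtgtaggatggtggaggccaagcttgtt
Jchain, chr5:88527848-88528147, minus strand: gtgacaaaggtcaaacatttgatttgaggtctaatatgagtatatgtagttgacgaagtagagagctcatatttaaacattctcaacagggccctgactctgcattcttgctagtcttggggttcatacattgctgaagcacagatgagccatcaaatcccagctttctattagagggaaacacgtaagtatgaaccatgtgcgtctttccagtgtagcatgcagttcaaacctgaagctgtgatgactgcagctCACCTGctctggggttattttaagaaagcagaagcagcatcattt

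Counted from 1 at the start site, with bases before it negative, the E-box began at -154 in Cd79a, at -245 in Cd22 and at 6 in Jchain, and the early B cell factor motif of Cd22 began at -49. Among all 32851 RefSeq promoters, 20.2% held the E-box and 0.904% held the early B cell factor motif on either strand, and the 2 motifs did not overlap in Cd22. No match in these 4 windows was found for the octamer ATGCAAAT (1.74% of all promoters), for GAGGAAGT, a PU.1 motif (3.20%), for the NF-kB motif (GGGAC, then TTTCC, 0.155%) or for the TATA box TATAAA (13.6%), each searched on both strands. A match is a run of letters and not a measured binding site.

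In all 9 genes the same 2 libraries, D-3 IR 10 and D+1 IR 3, held the highest and the second highest level of the 19. Together they held 66.7% (Ighm) to 87.2% (Cd79a) of the summed level over all libraries. D-3 IR 10 stood 18.3-fold (Ighm) to 95.6-fold (Ighd) above the median of the other 17 libraries, and D+1 IR 3 stood 15.6-fold (Ighm) to 77.6-fold (Ighd) above it. D+1 IR 18 and D+1 IR 20 followed in every gene, and no other library stood above them except control 6, which was above D+1 IR 20 in Ms4a1. Levels are given as CPM, read counts relative to library depth, and scaled with TMM factors that correct for library composition. Depth was 25839001 to 97083681 counts in genes per library (median 39641963). The libraries' spread limited the precision of the group comparisons, and counting error that of the lowest counts. D+1 IR 1, 2 and 3 carry another number in their file names (41) than all other libraries (61), and what that number stands for is not stated.

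**Figure D1:**
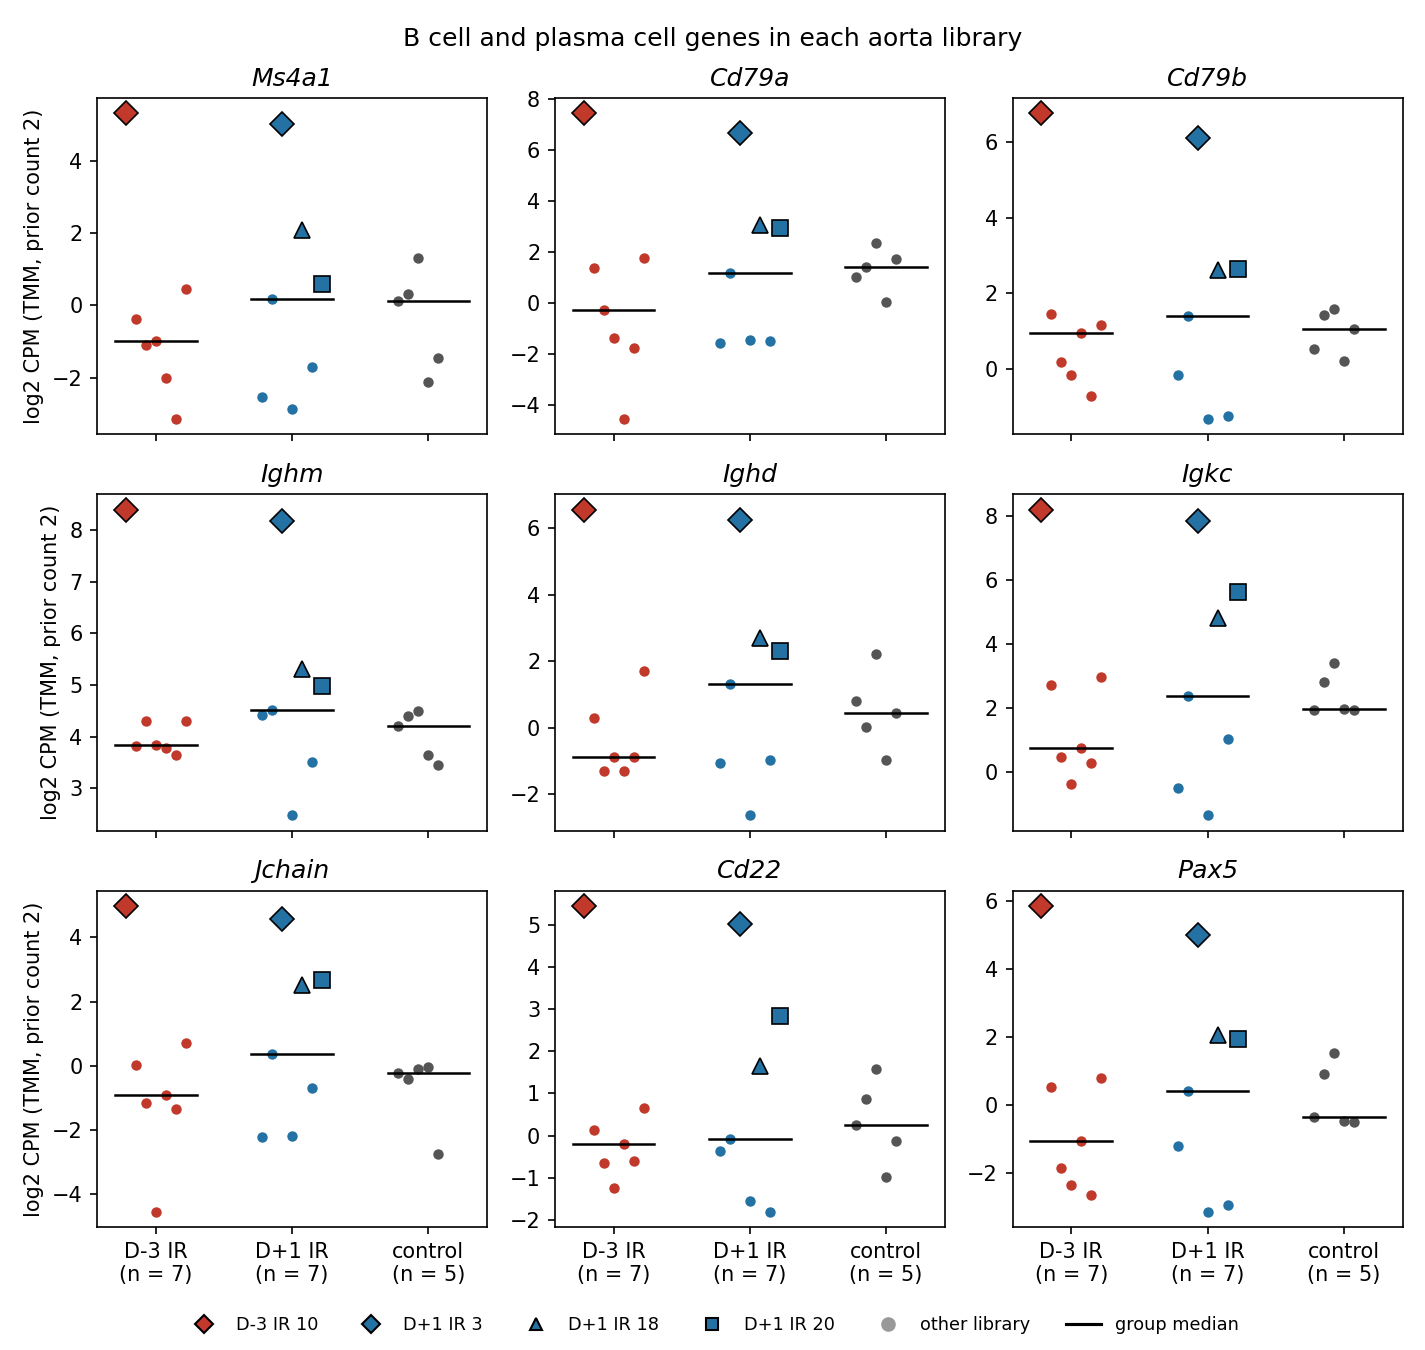
Levels of the 9 genes in each library as log2 CPM (TMM factors, prior count of 2), with the D-3 IR (n = 7), D+1 IR (n = 7) and control (n = 5) libraries side by side, 1 point per library and a line at each group's median. D-3 IR 10 and D+1 IR 3 (diamonds) lie above every other library in all 9 panels, and D+1 IR 18 (triangle) and D+1 IR 20 (square) come next among the irradiated libraries.

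The antigen receptor genes are described first. Cd79a (chr7:24897381-24902197 of GRCm38, plus strand) encodes the immunoglobulin alpha chain that signals for the B cell receptor. In D-3 IR libraries it was at 0 CPM at the lowest (D-3 IR 14), 0.785 at the median and 175 at the highest (D-3 IR 10). The D+1 IR libraries held 0.293 at the lowest, 2.21 at the median and 101 at the highest (D+1 IR 3), against 1.99, 2.65, 5.08, 0.986 and 3.26 CPM in control 4, 5, 6, 8 and 9. The groups overlapped, and both irradiated medians lay below the control median while both irradiated maxima lay above every control library. The 0 counts of D-3 IR 14 allow a level of up to 0.0387 CPM in that library (3 counts), where 146 counts of Cd79b were found.

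Cd79b (chr11:106311341-106314762, minus strand) encodes the partner chain, immunoglobulin beta. It was at 0.564 CPM at the lowest, 1.88 at the median and 109 at the highest (D-3 IR 10) in D-3 IR libraries. In D+1 IR libraries it was at 0.355, 2.59 and 69.0 CPM (D+1 IR 3) by the same order, against 1.40, 2.63, 2.95, 1.11 and 2.01 CPM in control 4, 5, 6, 8 and 9. The second highest D-3 IR library, D-3 IR 11, was at 2.703 CPM, within the range of the controls.

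Ighm (chr12:113418558-113422730, minus strand) encodes the constant part of the IgM heavy chain. It was at 12.4 CPM at the lowest, 14.2 at the median and 337 at the highest (D-3 IR 10) in D-3 IR libraries. D+1 IR libraries held 5.50, 22.9 and 288 CPM (D+1 IR 3) by the same order, against 18.5, 21.04, 22.6, 12.4 and 10.8 CPM in control 4, 5, 6, 8 and 9. Ighm differed from the other members by its level in libraries with little else of the B cell programme: in the 8 libraries with Cd79a under 1 CPM it stayed at 5.50 to 21.4 CPM. Per Cd79a count there were 1.93 Ighm counts in library D-3 IR 10 and 2.86 in library D+1 IR 3, against 3.32 to 73.1 in the 16 other libraries with a Cd79a count. The counts do not tell membrane, secreted or germline Ighm transcripts apart.

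Ighd (chr12:113406604-113416324, minus strand) encodes the IgD heavy chain, carried by mature naive B cells. It was at 0.361 CPM at the lowest, 0.505 at the median and 93.9 at the highest (D-3 IR 10) in D-3 IR libraries. In D+1 IR libraries it was at 0.118, 2.44 and 76.2 CPM (D+1 IR 3) by the same order, against 1.69, 0.982, 4.64, 0.462 and 1.33 CPM in control 4, 5, 6, 8 and 9. The D-3 IR median lay below 4 of the 5 control libraries, and the highest D-3 IR library after D-3 IR 10, at 3.23 CPM in D-3 IR 16, lay below control 6.

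Igkc (chr6:70726435-70726966, plus strand) encodes the constant part of the kappa light chain, used by most mouse antibodies. It was at 0.726 CPM at the lowest, 1.64 at the median and 296 at the highest (D-3 IR 10) in D-3 IR libraries. D+1 IR libraries held 0.343, 5.07 and 234 CPM (D+1 IR 3) by the same order, with 49.5 CPM in D+1 IR 20 and 28.2 in D+1 IR 18, against 3.76, 7.03, 10.4, 3.82 and 3.79 CPM in control 4, 5, 6, 8 and 9. Of the 6 other D-3 IR libraries 4 lay below every control library. Its annotated interval overlaps Gm30211. Reads were counted without strand, so reads that fit both genes count as ambiguous and are lost to Igkc.

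Among the coreceptors and regulators, Ms4a1 (chr19:11249675-11266241, minus strand) encodes CD20, a surface protein of B cells that plasma cells lose. It was at 0.0705 CPM at the lowest, 0.459 at the median and 39.6 at the highest (D-3 IR 10) in D-3 IR libraries. D+1 IR libraries held 0.0947, 1.08 and 32.3 CPM (D+1 IR 3) by the same order, against 1.03, 1.19, 2.44, 0.185 and 0.318 CPM in control 4, 5, 6, 8 and 9. The groups overlapped over nearly the whole control range.

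Cd22 (chr7:30865402-30880342, minus strand) encodes an inhibitory receptor that damps B cell receptor signalling. It was at 0.382 CPM at the lowest, 0.826 at the median and 43.5 at the highest (D-3 IR 10) in D-3 IR libraries. D+1 IR libraries held 0.242, 0.904 and 32.4 CPM (D+1 IR 3) by the same order, with 7.12 in D+1 IR 20, against 1.14, 1.78, 2.97, 0.462 and 0.875 CPM in control 4, 5, 6, 8 and 9. Here D+1 IR 20 stood 2.29-fold above the next D+1 IR library other than D+1 IR 3.

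Pax5 (chr4:44524757-44710487, minus strand) encodes the transcription factor that holds cells in the B lineage and is switched off in plasma cells. It was at 0.118 CPM at the lowest, 0.439 at the median and 57.6 at the highest (D-3 IR 10) in D-3 IR libraries. Those of D+1 IR held 0.0710, 1.28 and 31.8 CPM (D+1 IR 3) by the same order, against 0.737, 1.86, 2.85, 0.678 and 0.663 CPM in control 4, 5, 6, 8 and 9. Of the 6 other D-3 IR libraries 4 lay below every control library, as in Igkc.

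Jchain (chr5:88519809-88527891, minus strand) encodes the chain that joins IgM and IgA into polymers and is made mostly by plasma cells. It was at 0 CPM at the lowest (D-3 IR 13, where 3 counts would be 0.115 CPM), 0.490 at the median and 31.4 at the highest (D-3 IR 10) in D-3 IR libraries. Those of D+1 IR held 0.174, 1.26 and 23.5 CPM (D+1 IR 3) by the same order, with 6.27 in D+1 IR 20 and 5.64 in D+1 IR 18, against 0.811, 0.716, 0.887, 0.925 and 0.106 CPM in control 4, 5, 6, 8 and 9. Control 9, at 4 counts, lay apart from the other controls, which were all between 0.716 and 0.925 CPM.

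The test of the groups was edgeR's quasi-likelihood F-test over the 3 groups together, with Benjamini-Hochberg adjustment over all 17617 genes. It called none of the 9 genes in any comparison, and none reached an unadjusted p under 0.05. Over all genes 0% were called in each comparison after adjustment, and 1.32% for D-3 IR against control, 7.11% for D+1 IR against control and 11.5% for D-3 IR against D+1 IR had an unadjusted p under 0.05. Tested for any difference between the 3 groups at once, no member had an unadjusted p under 0.05 either, against 6.65% of all genes, and 0% were called after adjustment. In no comparison did the libraries of 1 group lie all above or all below those of the other for a member. Over all genes this held, higher and lower, for 0% and 0.0114% in D-3 IR against control, 0.0341% and 0.102% in D+1 IR against control, while the comparison of D-3 IR with D+1 IR had 0.119% and 0.0397%.

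For D-3 IR against control the fitted log2 fold change was positive in 9 of 9 genes, against 43.1% of all genes. It ranged from 1.85 ± 1.04 (SE) in Ighm to 3.21 ± 1.91 in Cd79a, with a median of 2.86 against -0.03 over all genes. Unadjusted p ran from 0.0655 (Cd79b) to 0.139 (Ms4a1), and edgeR's adjusted p was 1.00 in all 9. Without D-3 IR 10 and D+1 IR 3 the sign was turned in every one of them: the log2 fold change was negative in 9 of 9, against 57.5% of all genes. It then ran from -1.21 in Cd79a to -0.12 in Jchain, with a median of -0.85, unadjusted p from 0.284 to 0.903 and an adjusted p of 1.00 (0 of 9 under an unadjusted 0.05, against 1.67% of all genes). Leaving out D-3 IR 10 alone turned all 9 in the same way (-1.22 to -0.12). With D+1 IR 3 alone left out all 9 stayed positive (1.85 to 3.21), with edgeR unadjusted p of 0.0361 to 0.0981 and adjusted p of 0.99998. The sign of this comparison thus turned on 1 library of 7.

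For D+1 IR against control the log2 fold change was also positive in 9 of 9 genes, against 44.9% of all genes. It ranged from 1.81 ± 1.04 in Ighm to 2.98 ± 1.72 in Igkc, and adjusted p from 0.644 to 0.686. Without D-3 IR 10 and D+1 IR 3 all 9 stayed positive (47.1% of all genes), but the values fell to 0.19 in Cd79a up to 1.76 in Jchain, with a median of 0.42 and adjusted p from 0.794 to 0.975 (0 of 9 under an unadjusted 0.05, against 5.01% of all genes). Jchain at 1.76 ± 1.01 and Igkc at 1.31 ± 1.03 kept the largest values there. With D-3 IR 10 alone left out, 5 of the 9 had an unadjusted p under 0.05 (edgeR adjusted p of 0.604 to 0.605), against 7.81% of all genes, and with D+1 IR 3 alone left out 0 of 9 had. Without D+1 IR 1, 2 and 3, which leaves only libraries of the file number 61, the values were 0.40 (Ighm) to 2.24 (Jchain). Of the 6 D+1 IR libraries without D+1 IR 3, D+1 IR 18 and D+1 IR 20 were highest in Igkc (28.2 and 49.5 CPM) and Jchain (5.64 and 6.27 CPM). D+1 IR 2 came next (5.07 and 1.26 CPM). The medians of these 6 libraries lay below the control medians in Cd79a (1.27 against 2.65 CPM), Igkc (3.53 against 3.82 CPM), Cd79b, Cd22 and Ms4a1. They lay above the control medians in Ighm (22.2 against 18.5 CPM), Jchain (0.914 against 0.811 CPM), Ighd and Pax5.

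For D-3 IR against D+1 IR the log2 fold change lay between -0.09 (Jchain) and 0.60 (Cd79a), with SE of 0.89 to 1.53, and was positive in 7 of 9 genes against 45.4% of all genes. Each of the groups holds 1 of the 2 high libraries, and leaving out only 1 of them moved all 9 genes together. Leaving out D-3 IR 10, the values ran from -3.86 (Igkc) to -1.94 (Ighm), with edgeR unadjusted p under 0.05 in 9 of 9 (0.0065 to 0.0178), against 12.3% of all genes, and adjusted p of 0.368 to 0.370. D+1 IR 3 was still among the libraries of that fit. Without D+1 IR 3 they ran from 1.11 (Jchain) to 3.04 (Cd79a), with edgeR unadjusted p of 0.0460 to 0.388 and adjusted p of 0.612 to 0.793. Without both, all 9 were negative (60.2% of all genes), from -2.18 ± 0.997 in Igkc to -0.50 ± 0.35 in Ighm. Of the 9, 1 (Igkc) had an unadjusted p under 0.05 in edgeR's fit (unadjusted p = 0.0436, adjusted p = 0.608), against 8.16% of all genes. D-3 IR and D+1 IR were both set against the same 5 control libraries, so that their 2 comparisons with control are not independent.

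**Figure D2:**
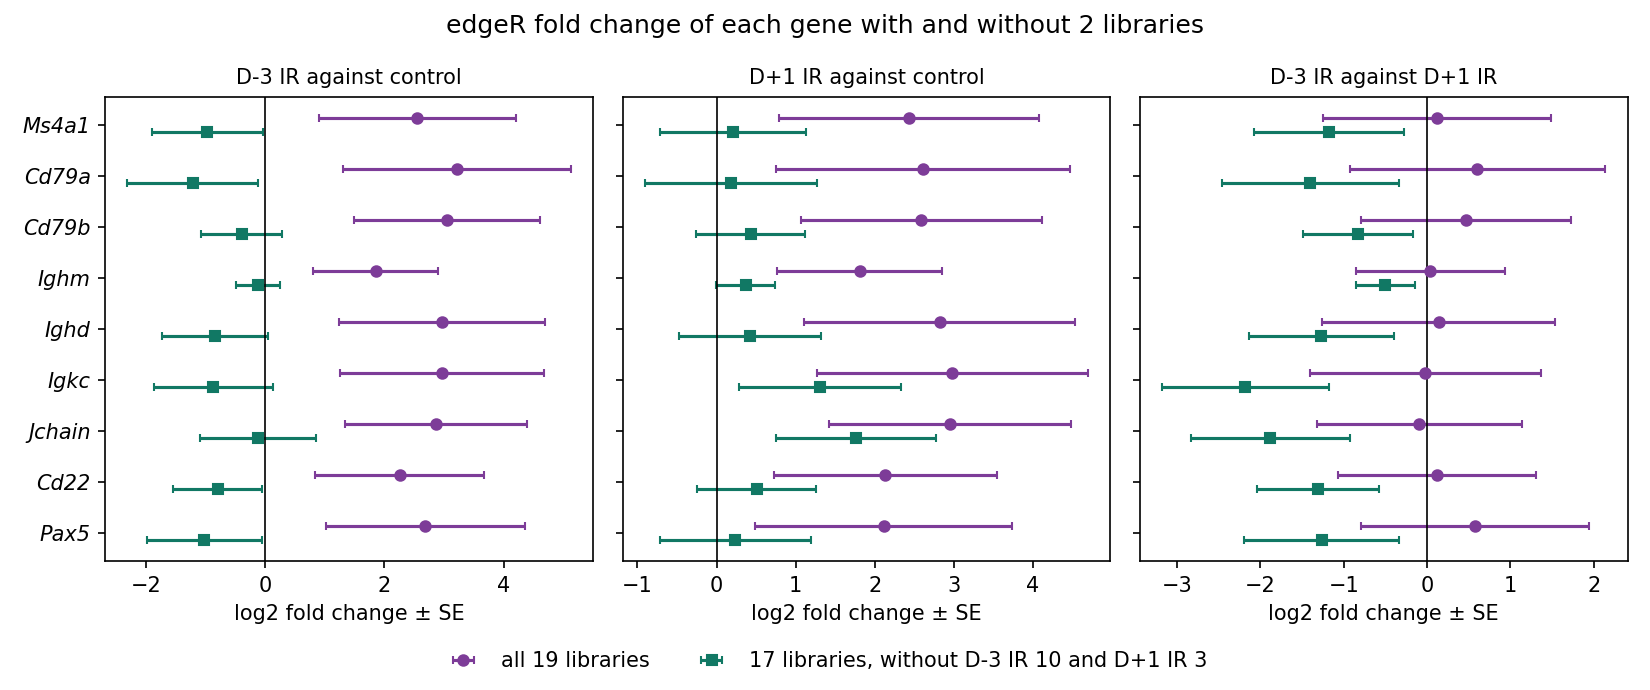
Log2 fold change with its SE for each gene and comparison from edgeR, over all 19 libraries (circles) and over the 17 libraries without D-3 IR 10 and D+1 IR 3 (squares). In D-3 IR against control all 9 circles lie right of 0 (1.85 to 3.21) and all 9 squares left of it (-1.21 to -0.12), while in D+1 IR against control both stay right of 0.

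The spread of the members was far above that of most genes. Their biological coefficient of variation ran from 1.06 (Ighm, higher than 92.4% of the genes tested) to 1.75 (Cd79a, higher than 98.6%), against a common value of 0.591. An exact two-sided permutation test of the mean log2 CPM, in which a single high library weighs less, gave differences of -0.94 (Cd79a) to 0.54 (Ighm) for D-3 IR against control, with 6 of 9 positive and p of 0.617 to 0.979. For D+1 IR against control the same test gave 0.01 (Cd79a) to 1.42 (Jchain) with p of 0.255 to 0.994. Over the 17 libraries without D-3 IR 10 and D+1 IR 3 all 9 differences were negative for D-3 IR against control, from -2.12 in Cd79a (exact permutation p = 0.0801) to -0.09 in Ighm (exact permutation p = 0.688). For D+1 IR against control only Jchain (0.78, exact permutation p = 0.422) and Ighm (0.17, exact permutation p = 0.758) then stayed positive, and the other 7 were negative (-0.88 in Cd79a to -0.20 in Cd22), against 9 of 9 positive in the fit of means above. DESeq2 replaced the counts of D-3 IR 10 and D+1 IR 3 as outliers in 6 of the 9 genes (Cd79a, Cd79b, Ighd, Ighm, Ms4a1 and Pax5), for instance 6930 Cd79a counts of D-3 IR 10 by 96. In those 6 it gave negative values for D-3 IR against control, and in Igkc, Jchain and Cd22, where the counts stood, positive ones (2.27 to 2.97). The smallest DESeq2 unadjusted p among the 9 genes was 0.0205 for D-3 IR against control and 0.0144 for D+1 IR against control. The smallest DESeq2 adjusted p was 0.9999 and 0.452 in these 2 comparisons.

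Levels can be ordered between genes only per length of the gene model. Over the 17 libraries without D-3 IR 10 and D+1 IR 3 the median was 9.79 CPM per kb in Ighm and 7.12 in Igkc, followed by Cd79a (1.37), Cd79b (1.32), Ighd (0.517), Jchain (0.285), Cd22 (0.173), Pax5 (0.0766) and Ms4a1 (0.0741). Ighm and Igkc did not differ beyond the spread, with Ighm the higher in 9 of 17 libraries, and neither did Cd79a and Cd79b (Cd79a higher in 6 of 17) or Pax5 and Ms4a1 (Pax5 higher in 8 of 17). Igkc was above Cd79a, and Cd22 above Pax5, in 17 of 17. In D-3 IR 10 the order was led by Igkc at 557 CPM per kb before Ighm at 179, Cd79a at 120 and Cd79b at 75.9, and in D+1 IR 3 by Igkc at 441 before Ighm at 153 and Cd79a at 69.2. Igkc thus lay above Ighm in both, whereas over the other 17 libraries neither led. This order was not particular to the 2 libraries: Igkc was also above Ighm in D+1 IR 20 (93.0 against 16.7 CPM per kb) and D+1 IR 18 (53.1 against 21.1).

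The 9 genes varied together among libraries. Since D-3 IR 10 and D+1 IR 3 form a cluster of their own, correlations were taken over the other 17 libraries, all of which share the aorta, the protocol and a scaling factor per library. Over the 36 pairs Spearman's rho of log2 CPM ran from 0.566 (Cd79a and Ighm) to 0.963 (Cd79b and Pax5), with a median of 0.835, and Pearson's r from 0.584 to 0.953. Cd79a and Ighm had r = 0.584 (permutation p = 0.0138) and rho = 0.566 (permutation p = 0.0188), both values unchanged by Benjamini-Hochberg adjustment over the 36 pairs. Without the 2 libraries farthest from the median of the first gene, r over the pairs ran from 0.531 (Ighm and Igkc) upward, with a median of 0.783. Ighm was the least tied member, with a median rho of 0.648 to the other members, then Jchain with 0.694, while Pax5 had 0.870. Within the 15 libraries of the file number 61 other than D-3 IR 10 the median rho was 0.830, within the 6 other D+1 IR libraries 0.886 and within the 6 other D-3 IR libraries 0.600. On rho 13 of the 36 pairs had an adjusted permutation p under 0.05 within those D+1 IR libraries. Within those D-3 IR libraries 0 had, and rho ran down to -0.143.

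Among the 10 genes most like the members over the 19 libraries, by Spearman's rho to the mean of the members' scaled log2 CPM, were H2-Ob (0.953), Fcmr (0.944), Lat (0.937), Blk (0.928), Lck (0.912), Ly6d (0.905), Fcer2a (0.900), Trbc2 (0.898) and Tnfrsf13c (0.895). The same 10 led over the 17 libraries. H2-Ob (an antigen presentation chaperone), Fcmr (an IgM receptor), Blk (a B cell kinase), Fcer2a (CD23) and Tnfrsf13c (the BAFF receptor) are B cell genes. Lat, Lck and Trbc2 are genes of T cell receptor signalling. Of the first 50 genes 7 were immunoglobulin segments other than members, 11 were on the list of other B cell genes and 6 on the T cell list.

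A list of other B cell genes changed sign with the 2 libraries as the members did. Of its 26 genes 25 were tested and 0 were called in any comparison. In D-3 IR against control 21 of 25 were positive with a median log2 fold change of 1.91, against 4 of 25 and -0.73 without D-3 IR 10 and D+1 IR 3, where the medians over all genes were -0.03 and -0.04. For D+1 IR against control 23 of 25 were positive with a median of 1.64, against 16 of 25 and 0.27 without them. The smallest edgeR p in the list was that of Bank1, an adaptor of B cell receptor signalling, in D-3 IR against control (log2 fold change 1.89, unadjusted p = 0.0330, adjusted p = 1.00). Next came Cr2, the complement receptor of mature B cells (4.04), Fcrl1 (2.72) and Fcmr (3.30) in the same comparison, with edgeR unadjusted p of 0.0708 to 0.0896 and adjusted p of 1.00. Cr2 was at 39.5 CPM in library D-3 IR 10 and 19.2 in library D+1 IR 3, and at most 2.77 CPM in the others.

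The genes that define plasma cells, other than Jchain, were low or were not highest in these 2 libraries. Mzb1, an endoplasmic reticulum chaperone of antibody-secreting cells, was at 0 counts in 12 of 19 libraries and at most 0.630 CPM (D-3 IR 10). Tnfrsf17, the BCMA receptor of plasma cells, was at most 0.439 CPM and at 0 counts in 4 libraries. Prdm1, the factor that drives plasma cell formation, was highest in control 9 (4.35 CPM), with 1.94 CPM in library D-3 IR 10 and 1.17 in library D+1 IR 3. Xbp1 and Sdc1, which many other cells also make, were in every library and highest in control 9. The list of 12 other plasma cell genes (11 tested, 0 called) had 5 of 11 positive for D-3 IR against control with a median of -0.11, and 3 of 11 for D+1 IR against control with a median of -0.21. Its summed level was 315 to 526 CPM in D-3 IR libraries, 287 to 506 in D+1 IR libraries and 302 to 863 in controls, with D-3 IR 10 and D+1 IR 3 at the lower end of their groups (315 and 287). Much of this sum was Xbp1 and Sdc1, with medians of 145 and 74.5 CPM over the other 17 libraries. Mzb1, Tnfrsf17 and Prdm1 added little (medians of 0, 0.108 and 0.955 CPM), so the sum cannot be read as a plasma cell level. Tent5c, an RNA-stabilising enzyme that is also made outside plasma cells, had the smallest edgeR p in D-3 IR against D+1 IR (log2 fold change 1.54, unadjusted p = 0.000122, adjusted p = 0.409).

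Among the other immunoglobulin constant genes 7 of 9 were tested and 0 were called. The medians were 2.82 (7 of 7 positive) for D-3 IR against control and 3.16 (7 of 7) for D+1 IR against control, and -0.59 (2 of 7) and 0.30 (5 of 7) without D-3 IR 10 and D+1 IR 3. The largest was Ighg2c in D+1 IR against control (5.21, unadjusted p = 0.0305, edgeR adjusted p = 0.644), and it rested on D+1 IR 3 with 58.2 CPM, next to 16.7 CPM in D-3 IR 10 and at most 0.734 in all others. Igha, the IgA heavy chain of mucosal antibody, did not follow the order of the members: D+1 IR 20 was highest with 75.2 CPM, before 47.1 in library D-3 IR 10, 26.3 in library D+1 IR 3 and 15.8 in D+1 IR 18. Control libraries held 1.18, 3.29, 0.290, 4.62 and 0.371 CPM of Igha. Ighe, the IgE heavy chain, was at 0 counts in 17 of 19 libraries.

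As shares of all heavy chain constant counts of a library, Ighm took 26.8% to 96.5%, Ighd 1.75% to 18.3% and Igha 0% to 63.8%. D-3 IR 10 and D+1 IR 3 had like shares of Ighm (65.8% and 63.0%) and Ighd (18.3% and 16.7%), and differed in Ighg2c (3.26% and 12.7%). D+1 IR 20 stood alone, with 63.8% Igha and 26.8% Ighm of 3874 counts. D+1 IR 18 had 24.5% and control 8 had 26.2% Igha. In the 7 irradiated libraries with Cd79a under 1 CPM, Ighm took 85.3% (D+1 IR 19) to 96.5% (D+1 IR 1), and in control 8, the only control library under 1 CPM, it took 70.5%.

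**Figure D3:**
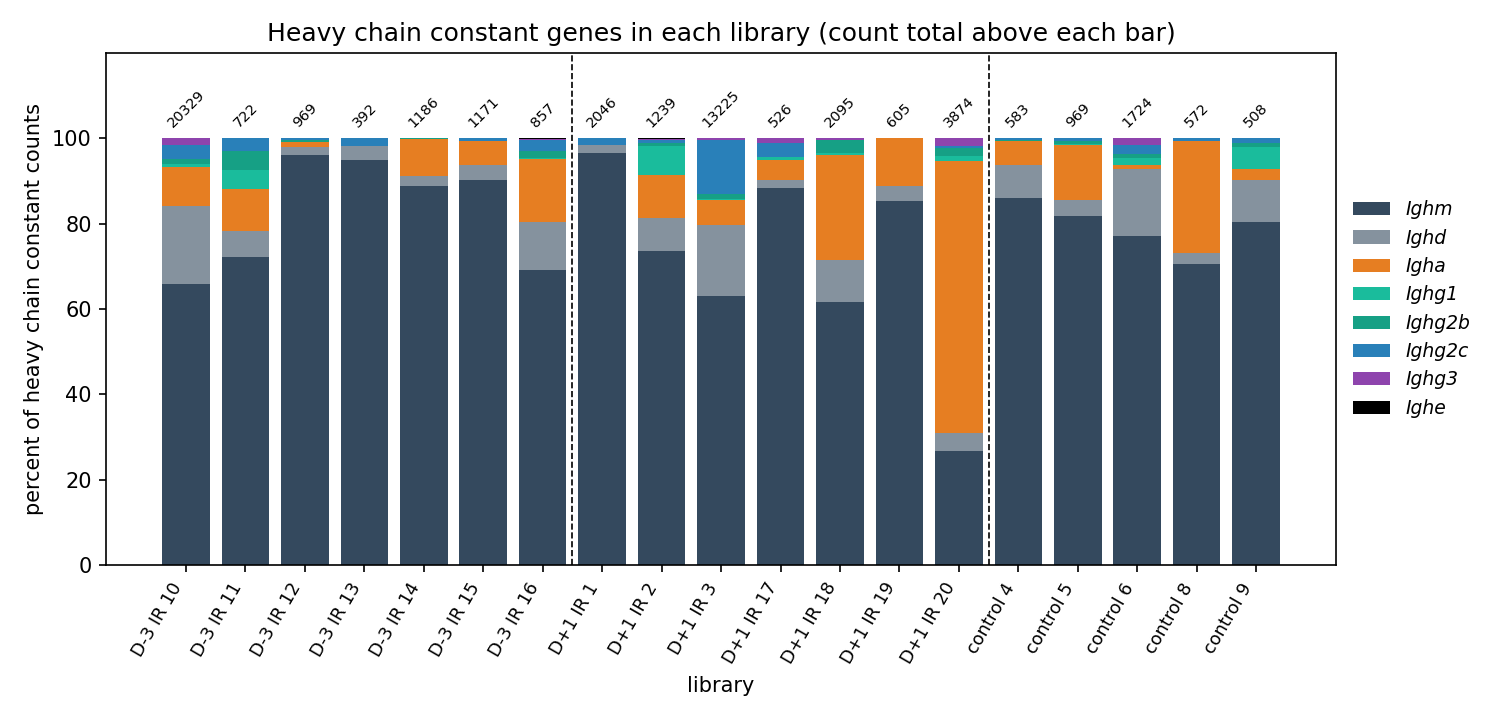
Share of each heavy chain constant gene in the heavy chain constant counts of each library, with the number of counts above the bar and dashed lines between the D-3 IR, D+1 IR and control libraries. Igha (orange) takes 63.8% in D+1 IR 20, the grey band of Ighd is widest in D-3 IR 10 (18.3%) and D+1 IR 3 (16.7%), and Ighm fills 96.5% of the bar of D+1 IR 1.

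These ratios are taken within a library and need no scaling to its depth. They were compared between groups with exact two-sided permutation tests over libraries (12 tests, Benjamini-Hochberg adjusted over them). None of the 12 passed, with adjusted p of 0.878 throughout. The switched isotypes (IgG, IgA and IgE) took 10.8% ± 8.20 (SD, n = 7) of heavy chain constant counts in D-3 IR libraries and 22.7% ± 22.2 (n = 7) in D+1 IR libraries, against 12.9% ± 8.45 (n = 5) in controls (exact permutation p = 0.682 and 0.452). D+1 IR 20 alone was at 69.1%, with an exact 95% Clopper-Pearson interval of 67.6% to 70.5% that covers counting error only, as do all such limits here.

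Ighd took 7.90% ± 7.44 (SD, n = 7) of Ighm plus Ighd counts in D-3 IR libraries and 9.41% ± 7.16 (n = 7) in D+1 IR libraries, against 8.87% ± 5.43 (n = 5) in controls (exact permutation p = 0.806 and 0.878). The highest shares were those of D-3 IR 10 (21.8%), D+1 IR 3 (20.9%) and control 6 (17.0%). The lambda genes Iglc1, Iglc2 and Iglc3 can lose reads in counting, where reads that fit more than 1 gene are not counted. They took 16.4% ± 7.99 (n = 6) of light chain constant counts in D-3 IR libraries and 11.6% ± 6.49 (n = 7) in D+1 IR libraries. Controls held 14.4% ± 4.97 (n = 5), with exact permutation p = 0.675 for D-3 IR and 0.428 for D+1 IR. D-3 IR 13 was left out there, since it had only 19 light chain counts and 20 were asked for. The log2 ratio of Jchain to Cd79a counts averaged -1.10 ± 1.23 (SD, n = 4) in D-3 IR libraries and -0.94 ± 0.80 (n = 4) in D+1 IR libraries, against -1.44 ± 1.03 (n = 4) in controls (exact permutation p = 0.686 and 0.486). D-3 IR 12, 13 and 14, D+1 IR 1, 17 and 19 and control 9 had fewer than 20 counts of either gene and were left out, and with 4 against 4 the smallest p that this test can give is 0.0286.

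The variable, diversity and joining segments, from which each B cell clone assembles its own receptor, were counted as well. Of 412 such segments 190 had a count in library D-3 IR 10 and 178 in library D+1 IR 3, against 10 to 85 in the other 17 libraries. Their summed level was 118 CPM in library D-3 IR 10 and 155 in library D+1 IR 3, against 0.414 to 17.9 in the others. D+1 IR 1, with the deepest sequencing among all libraries, had 23 segments with a count, from only 58 segment counts. The segments held 4687 counts in library D-3 IR 10 and 4477 in library D+1 IR 3, against 26 (D-3 IR 13) to 581 (D+1 IR 18) elsewhere. The number of segments seen depends on these counts, so it does not compare the breadth of the B cell RNA between libraries.

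Genes of lymph nodes and of T cells moved with the members, and their part in the result was not tested. Glycam1, a ligand that lines the high endothelial venules of lymph nodes, was at 214 CPM in library D-3 IR 10, 116 in library D+1 IR 3, 16.9 in D+1 IR 18 and 6.36 in D+1 IR 20. It was at 0 counts in 10 libraries and at most 0.270 CPM in the other 5. Ccl21a, a chemokine of lymphoid stroma, was at 249 CPM in library D-3 IR 10 and 134 in library D+1 IR 3, against 4.42 to 40.6 CPM elsewhere. Of the 7 lymph node genes 6 were found in the counts, since Fdcsp was not matched by name. Madcam1 did not pass the filter on low counts, so that 5 were tested, and 0 were called. For D-3 IR against control 5 of 5 were positive (median log2 fold change 2.05) and for D+1 IR against control 4 of 5 (median 1.48). Without D-3 IR 10 and D+1 IR 3 only 3 passed the filter on low counts, of which 1 was positive for D-3 IR against control (median -0.07) and 2 for D+1 IR against control (median 0.31). The 6 genes found summed to 368 to 1447 CPM in D-3 IR, 183 to 776 in D+1 IR and 276 to 698 in control libraries. Most of it was Clu, which many tissues make and which was named after its values were seen.

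The 12 T cell genes, all tested and 0 called, were positive against control in 12 of 12 for both D-3 IR (median 2.77) and D+1 IR (median 2.33). In D-3 IR against control 6 of the 12 were higher at an unadjusted p under 0.05, against 0.5% of all genes, and 0 of 11 without D-3 IR 10 and D+1 IR 3. They summed to 5.93 to 337 CPM in D-3 IR, 5.00 to 179 in D+1 IR and 6.66 to 12.7 in control libraries, and without D-3 IR 10 and D+1 IR 3 to at most 13.1 CPM in libraries of D-3 IR and 34.9 CPM in those of D+1 IR. Cd3e, a chain of the T cell receptor complex, was at 21.1 CPM in library D-3 IR 10 and 11.1 in library D+1 IR 3, and at most 1.73 elsewhere. Without these 2 libraries 4 of 11 T cell genes were positive for D-3 IR against control (median -0.11) and 11 of 11 for D+1 IR against control (median 0.92).

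**Figure D4:**
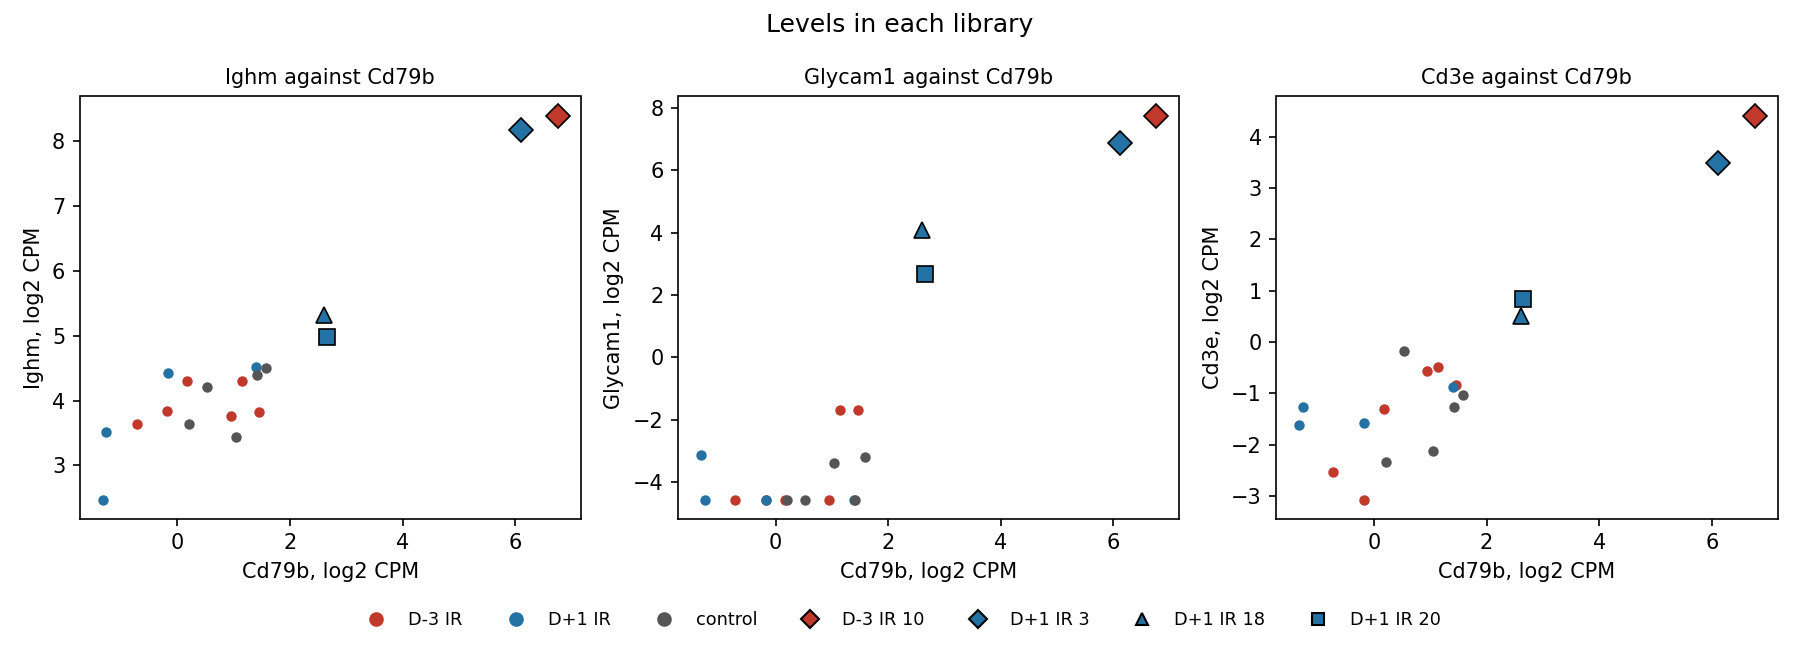
Log2 CPM of Ighm, Glycam1 and Cd3e against that of Cd79b, 1 point per library, coloured by D-3 IR, D+1 IR and control. D-3 IR 10 and D+1 IR 3 (diamonds) lie at the upper right of all 3 panels and D+1 IR 18 (triangle) and D+1 IR 20 (square) come next, while Ighm keeps a level of 5.50 CPM or more where Cd79b is low.

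Other tissue in the 2 libraries was uneven. The skeletal muscle list (3 genes) summed to 4387 CPM in library D-3 IR 10 and 487 in library D+1 IR 3, against 2.62 to 1643 CPM over the other libraries, and the smooth muscle list (4 genes) to 10886 CPM in library D-3 IR 10 and 1085 CPM in library D+1 IR 3, the lowest of all 19. The macrophage list (5 genes) summed to 1302 and 860 CPM in these 2 and to 2162 CPM in D+1 IR 20. Their part in the result was not tested either.

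Among factors that feed or attract B cells (10 genes, 8 tested, 0 called) 4 had an unadjusted p under 0.05 and a positive value for D+1 IR against control, against 2.28% of all genes. Smallest was the edgeR p of Cxcl12, a chemokine of stroma and marrow (log2 fold change 0.50, unadjusted p = 0.0243). Cxcl13, the chemokine that draws B cells into follicles, had 2.54 (edgeR unadjusted p = 0.0325), and Tnfsf13b, the survival factor BAFF, had 0.95 (edgeR unadjusted p = 0.0343), all with an adjusted p of 0.644. Without D-3 IR 10 and D+1 IR 3 the count was 3 of 7 tested, against 1.8% of all genes. Cxcl13 was at 54.4 CPM in library D-3 IR 10, 43.8 in library D+1 IR 3 and 38.3 in D+1 IR 18, and at most 8.30 elsewhere, so that D+1 IR 20, high in the members, was not high in it (3.89 CPM). Tnfsf13b showed no such peak, with 5.92 CPM in library D-3 IR 10 and 5.80 in library D+1 IR 3 inside the range of the others (0.818 to 11.6 CPM).

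Genes of the germinal centre, where B cells mutate their receptors (7 genes, 6 tested, 0 called), had medians of 0.11 for D-3 IR against control, -0.26 for D+1 IR against control and 0.11 for D-3 IR against D+1 IR. The B-1 and marginal zone list (6 genes, all tested, 0 called) had 0.13 for D-3 IR against control, 1.07 for D+1 IR against control and -0.16 for D-3 IR against D+1 IR. Without D-3 IR 10 and D+1 IR 3, where 5 were tested, the medians of this list were -0.13 (1 of 5 positive) for D-3 IR against control and 0.13 (4 of 5) for D+1 IR against control.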

How the data were processed

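RNA from abdominal aortas of 19 mice was polyA-selected, and the study prepared the libraries with a stranded kit. The authors checked the reads with FastQC, mapped them to Ensembl GRCm38 with STAR 2.7.9a and deposited raw read counts per gene, with no normalization. The annotation release is not given in the sources used here. The deposited counts of each strand made up 49.9% to 50.1%, so the unstranded counts were used. The whole intervals of some members overlap other genes (Gm29439 in Cd22, 4930526L06Rik in Ms4a1, 4 genes in Pax5). Reads that fit both a member and such a gene count as ambiguous, so the member can lose them. Rows that name no gene were left out (ambiguous reads alone 3.70% to 4.39%).

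Genes were kept by filterByExpr and tested in R 4.3.3 with the quasi-likelihood F-test of edgeR 4.0.16 (TMM factors 0.800 to 1.23, no intercept, all 3 groups fitted together, Benjamini-Hochberg threshold 0.05). DESeq2 1.42.0, other scalings, no filter, left-out libraries and exact permutation tests (scipy 1.17.1) were the alternatives. Permutation tests of correlations used 100000 resamples. CPM on the log2 scale carried a prior count of 2. Shares needed 20 counts, and log2 ratios added 0.5 count. Scripts were tested on simulated data. Positions come from GENCODE on GRCm38. The members, lists and rules were chosen with earlier results of these data known. Named genes were all members, of each list those with the smallest p (up to 4), marker and isotype genes, and the 10 genes most like the members, not all of which are reported here. Groups follow the labels. The study counts each library as 1 mouse, and p-values measure the spread between these libraries. The 2 irradiated groups differ in the day of X-rays. D+1 IR 1, 2 and 3 also carry another file number than the remaining libraries, and the sources used here do not say what it marks.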

Additional observations from a re-analysis of the deposited data

Results flagged for a closer look

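On the log2 CPM scale 8 of the 27 combinations of member and group held a library far from the rest, judged by its gap to the nearest library as a share of the group's whole range. Chance gives about 1 in 20, but D-3 IR 10 was already known to stand apart in these genes when they were chosen, so its values are a description. In 7 of them D-3 IR 10 was the highest of the 7 D-3 IR libraries, with a share of 0.573 in Ms4a1, 0.709 in Cd79b, 0.859 in Ighm, 0.616 in Ighd, 0.612 in Igkc, 0.717 in Cd22 and 0.594 in Pax5, against a critical value of 0.568. The same library supplied all 7, so they are not 7 separate events. In Jchain control 9 was the lowest of 5 control libraries with a share of 0.870 against a critical value of 0.71, and it rests on 4 counts. On the linear CPM scale the highest library passed in 9 of 9 members in D-3 IR and in 9 of 9 in D+1 IR, and in 0 of 9 in controls. In D+1 IR these passes depended on the scale. On log2 CPM the share of the highest D+1 IR library ran only from 0.243 (Igkc) to 0.501 (Ighm), below the critical value of 0.568. The highest library of each irradiated group was already known when the genes were chosen, so the passes on the linear scale are a description too.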

How the results depend on the processing

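No member was called in any comparison under any alternative, and for D+1 IR against control 92 log2 values over the alternatives kept a positive sign, as did 171 of 171 with 1 library left out, while 7 changed sign. These 7 came from the permutation test of mean log2 CPM without D-3 IR 10 and D+1 IR 3, added after seeing the data, with Ms4a1 -0.33, Cd79a -0.88, Cd79b -0.31, Ighd -0.24, Igkc -0.42, Cd22 -0.20 and Pax5 -0.71. For D-3 IR against control 27 log2 values changed sign and 72 did not. With D-3 IR 10 and D+1 IR 3 left out they were Ms4a1 -0.97, Cd79a -1.21, Cd79b -0.40, Ighm -0.13, Ighd -0.85, Igkc -0.87, Jchain -0.12, Cd22 -0.80 and Pax5 -1.03. DESeq2, which replaces outlying counts, gave Ms4a1 -0.84, Cd79a -1.01, Cd79b -0.32, Ighm -0.086, Ighd -0.70 and Pax5 -0.85. The permutation test of mean log2 CPM, also added after seeing the data, gave Cd79a -0.94, Igkc -0.27 and Pax5 -0.33 over all libraries, and without D-3 IR 10 and D+1 IR 3 Ms4a1 -0.82, Cd79a -2.12, Cd79b -0.48, Ighm -0.092, Ighd -0.90, Igkc -1.28, Jchain -0.50, Cd22 -0.64 and Pax5 -1.32. For D-3 IR against D+1 IR 31 changed sign and 68 did not. With D-3 IR 10 and D+1 IR 3 left out they were Ms4a1 -1.18, Cd79a -1.40, Cd79b -0.83, Ighm -0.50, Ighd -1.27, Cd22 -1.31 and Pax5 -1.26. DESeq2 gave Ms4a1 -1.003, Cd79a -1.19, Cd79b -0.74, Ighm -0.44, Ighd -1.10 and Pax5 -1.09, and the permutation test Ms4a1 -0.37, Cd79a -0.96, Cd79b -0.059, Ighm -0.19, Ighd -0.52, Cd22 -0.31 and Pax5 -0.40, or without D-3 IR 10 and D+1 IR 3 Ms4a1 -0.48, Cd79a -1.25, Cd79b -0.18, Ighm -0.26, Ighd -0.66, Cd22 -0.43 and Pax5 -0.61. Without D+1 IR 1, 2 and 3 Igkc was 1.10 and Jchain 0.60, and Ighm was -0.025 with RLE size factors and -0.032 without a filter. With 1 library left out in turn, log2 values for D-3 IR against control ran over Ms4a1 -0.97 to 3.16, Cd79a -1.22 to 3.54, Cd79b -0.40 to 3.27, Ighm -0.13 to 2.03, Ighd -0.85 to 3.67, Igkc -0.87 to 3.29, Jchain -0.12 to 3.07, Cd22 -0.80 to 2.697 and Pax5 -1.03 to 3.15. For D-3 IR against D+1 IR they ran over Ms4a1 -3.41 to 2.35, Cd79a -3.83 to 3.04, Cd79b -2.99 to 2.63, Ighm -1.94 to 1.48, Ighd -3.68 to 2.55, Igkc -3.86 to 1.66, Jchain -3.08 to 1.11, Cd22 -2.94 to 1.75 and Pax5 -3.14 to 2.46. The lowest values were those without D-3 IR 10.

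Over all genes edgeR called 0 in each comparison, and DESeq2 called 2 for D+1 IR against control, 56 for D-3 IR against D+1 IR and 23 among the 3 groups, while edgeR's newer quasi-likelihood method, added after seeing the data, called 1 among the 3 groups. Leaving out 1 library gave 0 to 0 genes. The difference in Ighd share for D+1 IR against control was -1.39 points without D-3 IR 10 and D+1 IR 3 and -0.54 points without D+1 IR 1, 2 and 3, against 0.531 points over all libraries. With 1 library left out it ran from -1.39 to 2.56, for D-3 IR against control from -3.29 to 1.06 and for D-3 IR against D+1 IR from -3.82 to 0.41. The lambda share without D+1 IR 1, 2 and 3 differed by -7.36 points for D+1 IR against control (exact permutation p = 0.0317) and by 9.35 points for D-3 IR against D+1 IR (exact permutation p = 0.0381), both unadjusted, and with 1 library left out it ran from -0.79 to 3.85 for D-3 IR against control. The switched share for D-3 IR against control ran from -3.86 to 1.46, and the log2 ratio of Jchain to Cd79a from -0.20 to 0.79 there and from -0.70 to 0.30 for D-3 IR against D+1 IR. Where no value above shows it, the cause was not tested. No paired analysis was possible because each library number occurs in 1 group only. Low counts limited the lowest values, such as the 4 Jchain counts of control 9 and the 4 Pax5 counts of D-3 IR 13 and of D+1 IR 19. They also limited the log2 ratio of Jchain to Cd79a, from which libraries with fewer than 20 counts of either gene were left out.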
